A study of Homo sapiens with 5 samples.

Results

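Potassium channel genes were described in 501Mel and Hermes 3A cells after shRNA knockdown of BPTF, the largest subunit of the chromatin-remodelling complex NURF. The members were the protein-coding genes of the GENCODE 29 annotation whose symbol begins with KCN, 97 of 19951 protein-coding genes, matched by Ensembl identifier to the read counts deposited for each library. Of the 97 genes, 82 were listed in the count tables of both cell lines, 9 in those of 501Mel alone, 2 in those of Hermes 3A alone and 4 in neither. A gene missing from a table was not taken as silent, since the tables listed 37259 genes for 501Mel and 34033 for Hermes 3A, with 31029 in common. The members listed for 501Mel alone included KCNA3, KCNA6, KCNA10, KCNB2, KCNG4, KCNJ8, KCNJ15 and KCNK18, the 2 listed for Hermes 3A alone were KCNIP1 and KCNJ1, and KCNE1B, KCNJ18, KCNK16 and KCNK17 were in neither table.

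501Mel is a line of human melanoma cells with MITF, the transcription factor that governs the melanocyte lineage, and Hermes 3A is an immortalised line of human melanocytes. Both groups carried a lentiviral shRNA against BPTF and a puromycin selection, with 2 libraries of 501Mel shBPTF cells and 3 of Hermes 3A shBPTF cells. 501Mel cells were grown with serum, while the Hermes 3A medium also held a phorbol ester, cholera toxin, stem cell factor and endothelin-1, and the methods describe more than 1 shBPTF hairpin without the labels saying which one a library carried. Each group is a single cell line and no shControl library was analysed here, so that the line, its medium and its response to the knockdown cannot be told apart.

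Potassium channels let potassium ions leave or enter the cell and thereby set the resting potential of the membrane and shape its return after excitation. Pore subunits of the voltage-gated (Kv), calcium or sodium activated, inward rectifier (Kir) and K2P (tandem pore domain) classes form the channel, modifier subunits join Kv pores without passing current alone, and auxiliary subunits change the gating or the traffic of the complex. In pigment cells, as in other cells that do not fire action potentials, such channels are known mainly for their bearing on membrane potential, cell volume and the cell cycle.

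The libraries held 43032311 and 37856675 counts in 501Mel and 30073071 to 41653084 in Hermes 3A cells, so that the floor of detection, set at 3 counts, stood for 0.0697 to 0.0998 CPM, the reads of a gene scaled for the library total. Intervals and floors cover counting error only. BPTF itself had 57.8 to 65.8 CPM in 501Mel and 45.8 to 54.1 CPM in Hermes 3A cells, a value that does not check the knockdown without control libraries. Genes were called between the lines at an adjusted p under 0.05 in edgeR. Markers of the melanocyte lineage were counted in every library, with 2 of 10 higher in 501Mel and 6 of 10 higher in Hermes 3A cells. In Hermes 3A cells DCT (307, 361 and 393 counts) and SLC45A2 (133, 288 and 223 counts) were low against 501Mel cells, with 45970 and 49226 counts of DCT and 29374 and 43280 counts of SLC45A2. Of the 7 fibroblast markers 6 were tested, with a median log2 fold change of 0.79, and 1 was called. This was COL1A2, with 3 and 4 counts in 501Mel and 2893, 7359 and 5631 in Hermes 3A cells, while COL1A1 (281 and 28 against 19, 43 and 16 counts) and the other 4 tested were not called. The summed level of the 7 was 4.39 and 19.2 CPM against 78.6 to 190 CPM, in Hermes 3A cells mostly from COL1A2. The 6 keratinocyte markers summed to 33.0 to 47.7 CPM, nearly all from KRT10, which was called higher in Hermes 3A cells, with KRT1 and KRT5 not listed for either line. The 7 neuronal markers summed to 102 and 183 CPM in 501Mel and 46.3 to 111 CPM in Hermes 3A cells, mostly from SYP and SNAP25, which were not called. Of the 4 tested, with a median log2 fold change of -0.45, STMN2 was called, with 14 and 0 counts in 501Mel and 263, 399 and 216 in Hermes 3A cells. The part of these other markers in the results on potassium channel genes was not tested.

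At least 10 counts in every library of a line were found for 36 of the 97 genes in 501Mel and 29 in Hermes 3A cells. Of these, 22 were found in both lines, 14 in 501Mel cells alone and 7 in Hermes 3A cells alone. The minimum had to be met in 2 libraries for 501Mel and in 3 for Hermes 3A cells, among them the one with the fewest counts. The share of all genes that met it in each line was not computed. The 8 auxiliary genes that met this minimum were the same in both lines, while the 4 K2P genes of 501Mel and the 2 of Hermes 3A cells had none in common. Of the 4 in 501Mel, KCNK2 had 1, 22 and 26 counts in Hermes 3A cells and KCNK7 had 8, 13 and 9, and neither was called. None of the 8 Kv1 genes, the Shaker family of neurons and lymphocytes, met the minimum in either line, though 3 of them were listed for 501Mel alone. Reads are counted over all cells of a library, so that fewer cells with a transcript and less of it per cell cannot be told apart.

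For each class the CPM of its members were summed in every library, which adds up reads and not channels. The auxiliary genes made up most of the sum, at 380 ± 69.9 CPM (SD, n = 2) in 501Mel and 876 ± 42.5 CPM (SD, n = 3) in Hermes 3A cells, of which KCNAB2 held 329 and 803 CPM. The calcium or sodium activated channels went the other way, with 56.0 and 82.3 CPM in 501Mel and 4.90, 8.91 and 5.85 CPM in Hermes 3A cells, a ratio of 10.6. Most of this sum in 501Mel cells came from KCNN2 (mean 51.4 CPM) and KCNU1 (13.2 CPM), while KCNMA1 of the same class was higher in Hermes 3A cells. KCNU1 was counted in this class as a relative of KCNMA1, although its channel is known to open at alkaline pH. The 4 KCNN genes of the class alone summed to 55.8 CPM in 501Mel and 5.11 CPM in Hermes 3A cells. Kv modifiers summed to 42.9 ± 1.27 CPM in 501Mel and 21.8 ± 2.15 CPM in Hermes 3A cells. The libraries of the 2 lines did not overlap in these 3 class sums. Kv pore genes as a whole were close, at 136 ± 7.20 against 118 ± 9.89 CPM. On library totals the lines did not overlap, by a narrow margin (141 and 131 against 115, 110 and 129 CPM). With library sizes scaled as in the test of single genes, they did overlap. Several Kv pore subfamilies were further apart. The EAG, ERG and ELK genes summed to 13.3 CPM in 501Mel and 59.1 CPM in Hermes 3A cells, while the Kv7 genes summed to 78.9 against 39.8 CPM and the Kv4 genes to 12.9 against 3.04 CPM. Single genes held much of these sums, KCNH1 with 4.82 against 56.2 CPM, KCNQ5 with 78.4 against 39.3 CPM and KCND3 with 8.73 against 1.04 CPM. Kir genes summed to 11.3 and 12.7 CPM in 501Mel and to 12.1, 31.2 and 28.5 CPM in Hermes 3A cells, and K2P genes to 5.93 ± 4.01 against 7.61 ± 1.17 CPM, with overlapping libraries in both classes.

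Differences between the lines were tested gene by gene with the quasi-likelihood test of edgeR on all genes listed in both lines. Nothing in the labels says that replicates came from separate cultures, so the p-values measure only the spread between these libraries. After a filter on low counts 46 of the 97 genes were tested, of which 15 were higher in 501Mel cells at an adjusted p under 0.05 and 11 were higher in Hermes 3A cells. The lines differ widely throughout the transcriptome, and 48.4% of the 17918 genes tested were called, 24.3% higher in 501Mel and 24.1% higher in Hermes 3A cells. The 26 potassium channel genes called were 56.5% of those tested, near that background. Without 501Mel replicate 1, 9 members were higher in 501Mel and 11 in Hermes 3A cells. The filter passes genes that are high in one line only, and among the 22 members with at least 10 counts in all 5 libraries 14 were called, where 45.7% of all genes of that kind were. Without overlap, both 501Mel libraries lay above all Hermes 3A libraries for 22 of the 46 genes and below them for 12, where the share over all tested genes was 38.0% and 31.9%. The median log2 fold change of 501Mel over Hermes 3A cells was 0.91 for the 46 genes and 0.02 for all genes, and the median of its absolute value was 1.65 against 0.79. The 2 sets were not matched for level. At least 10 counts in all 5 libraries were found for 22 of the 46 genes and for 13823 of the 17918. Whether the larger median goes with the lower counts was not tested. The medians of the 46 genes are the same with KCNK6, which had 0 counts in 501Mel, taken at its lower limit.

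The calls by class stand beside shares over all tested genes of 24.3% higher in 501Mel and 24.1% higher in Hermes 3A cells. No class was tested against these shares. The Kv pore genes had 14 tested members, 5 of them higher in 501Mel and 1 higher in Hermes 3A cells. The 6 tested modifiers were split 2 and 2 with 2 not called, and so were the 6 tested K2P genes. Of the 6 tested members of the calcium or sodium activated class 3, KCNU1 among them, were higher in 501Mel and 1 in Hermes 3A cells. For the 5 tested Kir genes these numbers were 1 and 2, and for the 9 tested auxiliary genes 2 and 3.

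**Figure D1:**
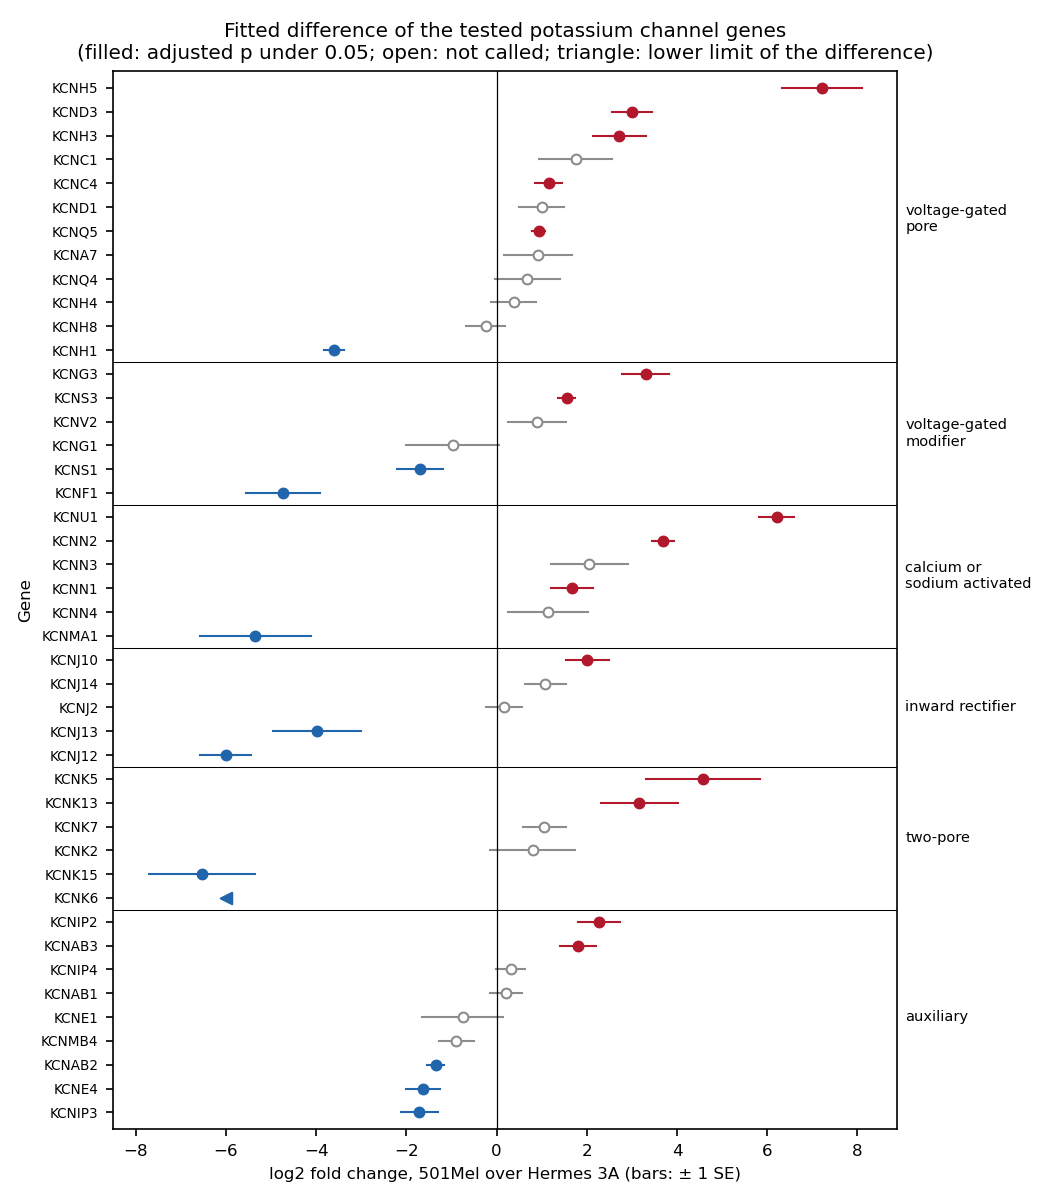
Log2 fold change of 501Mel over Hermes 3A cells with 1 standard error (SE) either side for 44 of the 46 tested potassium channel genes, ordered within their classes. Filled points passed an adjusted p of 0.05, with 15 to the right (higher in 501Mel cells) and 11 to the left, and the triangle of KCNK6 marks a lower limit of its difference.

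The sequences upstream of the start sites were read from the RefSeq promoter table used here, where 72 of the 97 members were matched, to show what kind of promoter the called genes have. The 200 bases before the RefSeq start are given in GRCh38.p14, 5′ to 3′ on the strand of the gene, for KCNN2, the highest gene called in 501Mel cells in its class, and for KCNF1, KCNK6 and KCNJ13, which were higher in Hermes 3A cells. Capitals mark CG dinucleotides and the E-box CATGTG on either strand (written CACATG on the other strand), to which MITF and related factors are known to bind.
KCNN2 (chr5:114361870-114362069, plus strand): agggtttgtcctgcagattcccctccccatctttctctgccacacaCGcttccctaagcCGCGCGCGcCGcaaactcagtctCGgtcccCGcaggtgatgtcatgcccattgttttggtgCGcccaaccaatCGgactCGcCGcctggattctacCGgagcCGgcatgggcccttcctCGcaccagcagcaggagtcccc
KCNF1 (chr2:10911734-10911933, plus strand): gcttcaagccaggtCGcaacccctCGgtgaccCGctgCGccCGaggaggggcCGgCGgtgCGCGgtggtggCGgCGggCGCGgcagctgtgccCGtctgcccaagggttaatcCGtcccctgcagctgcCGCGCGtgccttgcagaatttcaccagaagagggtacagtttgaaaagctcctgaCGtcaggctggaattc
KCNK6 (chr19:38319645-38319844, plus strand): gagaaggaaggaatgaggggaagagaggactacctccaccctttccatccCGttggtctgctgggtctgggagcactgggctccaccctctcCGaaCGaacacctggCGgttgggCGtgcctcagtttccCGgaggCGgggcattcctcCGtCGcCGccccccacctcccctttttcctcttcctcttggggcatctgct
KCNJ13 (chr2:232776566-232776765, minus strand): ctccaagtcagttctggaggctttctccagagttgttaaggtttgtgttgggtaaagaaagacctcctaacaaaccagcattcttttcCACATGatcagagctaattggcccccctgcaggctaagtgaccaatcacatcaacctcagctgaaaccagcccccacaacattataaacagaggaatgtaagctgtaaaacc

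These stretches held 15, 19, 10 and 0 CG dinucleotides in the order given. The KCNN2 start is one of several, and the end of its stretch lies in a coding exon of another KCNN2 transcript. In the KCNJ13 stretch the letters CACATG begin 112 bases before the start site, and its far end reaches into an exon of GIGYF2 on the opposite strand. Over the 250 bases before the start, 9.54% of all 27305 RefSeq promoters and 6 of the 72 KCN promoters held CATGTG on either strand, and CACGTG was in 6.49% and in 3 of the 72. Among the called genes, CATGTG was in 0 of 12 promoters of those higher in 501Mel and in 1 of 7 of those higher in Hermes 3A cells, that of KCNJ13. CACGTG was in 0 of the 12 and 0 of the 7. The promoters of KCNH1 and KCNQ5, also called and not printed, held neither. A match is a run of letters and no measurement of binding.

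The ratio of observed to expected CG, which is high in CpG island promoters, was at least 0.6 in 10 of the 12 promoters with a sequence among the genes higher in 501Mel and in 5 of 7 among those higher in Hermes 3A cells. It was that high in 6 of the 15 tested genes that were not called, in 11 of the 38 that were not tested, and in 47.4% of all promoters. Genes on both sides of the comparison thus had a median ratio above that of all promoters, 0.83 and 0.791 against 0.556. All promoters include those of genes that did not pass the low-count filter, and the ratio over all tested or all called genes was not computed. Only 50 of the 72 RefSeq starts lay in a GENCODE transcript of the same gene with their first 30 bases, and no test was made.

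Among the Kv pore genes, KCNQ5 and KCNH1 were the highest per length, each in one line. KCNQ5 (chromosome 6 of GRCh38, 72621792 to 73198851, plus strand) encodes a subunit of the slowly activating M current that steadies the membrane near rest. It had 3160 and 3157 counts in 501Mel and 1582, 1556 and 1257 in Hermes 3A cells, or 78.4 ± 7.04 CPM against 39.3 ± 2.18 CPM. The lines did not overlap, and the log2 fold change was 0.93 (SE 0.14, adjusted p = 0.00193), the smallest of the called members by absolute size. Per kb of exon, KCNQ5 was at 10.4 CPM per kb in 501Mel and 5.19 CPM per kb in Hermes 3A cells. The other 4 Kv7 genes did not reach 10 counts in every library of a line that listed them.

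KCNH1 (chromosome 1, 210676823 to 211134180, minus strand) encodes EAG1, a Kv channel best known from brain and found in many tumours. Its counts were 201 and 188 in 501Mel and 2293, 1959 and 1974 in Hermes 3A cells. The melanoma line was thus the low one in both of its libraries, 4.82 ± 0.209 CPM against 56.2 ± 8.91 CPM, an 11.7-fold difference with a log2 fold change of -3.61 (SE 0.22, adjusted p = 5.37e-05). With 5.73 CPM per kb it was the highest Kv pore gene per length in Hermes 3A cells, next to KCNQ5 at 5.19. By annotation 36.9% of its exon bases overlap AC096636.1 on the opposite strand and 16.1% overlap AL590132.1 on the same strand, both unlisted, and whether the counting used strand is not given in the sources used here.

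Its close relative KCNH5, which encodes EAG2, had the opposite pattern. KCNH5 had 56 and 91 counts in 501Mel and 0, 1 and 0 counts in Hermes 3A cells, so that a single read stood against 147. The ratio of pooled CPM was 205 with a 95% exact interval from 36.2 to 8136, and edgeR gave an adjusted p of 0.000612. KCNH3, an ELK channel of forebrain neurons, had 249 and 104 counts in 501Mel and 10, 33 and 25 in Hermes 3A cells (log2 fold change 2.72, SE 0.59, adjusted p = 0.00792). Both 501Mel libraries were above all Hermes 3A libraries, while their own CPM differed more than 2-fold, and without replicate 1 the adjusted p was 0.0634. KCNH4 and KCNH8 were not called, and KCNH2, the heart channel hERG, had 18 and 4 counts against 3, 1 and 0 and was not tested.

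KCND3 encodes Kv4.3, a pore of the fast transient outward current. It had 527 and 197 counts in 501Mel and 46, 48 and 25 in Hermes 3A cells, or 8.73 ± 4.98 CPM against 1.04 ± 0.181 CPM. The lower of the 501Mel libraries was still above every Hermes 3A library, and the log2 fold change was 3.00 (SE 0.44, adjusted p = 0.00165). KCND1, which encodes Kv4.1, had 204 and 132 against 45, 136 and 47 counts and was not called (adjusted p = 0.136).

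KCNC1 (chromosome 11, 17734774 to 17856804, plus strand) encodes Kv3.1, the channel that lets fast-spiking neurons fire at high rates. It had 42 and 17 counts in 501Mel and 1, 11 and 10 in Hermes 3A cells, or 0.713 ± 0.373 CPM against 0.209 ± 0.163 CPM. The 501Mel libraries were above all others, but at this depth the difference did not pass the test (log2 fold change 1.75, SE 0.82, adjusted p = 0.112). Of the other Kv3 genes, KCNC4 was higher in 501Mel cells, with 1006 and 905 against 570, 327 and 256 counts and an adjusted p of 0.0154, a call lost without any one library other than Hermes 3A replicate 1.

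**Figure D2:**
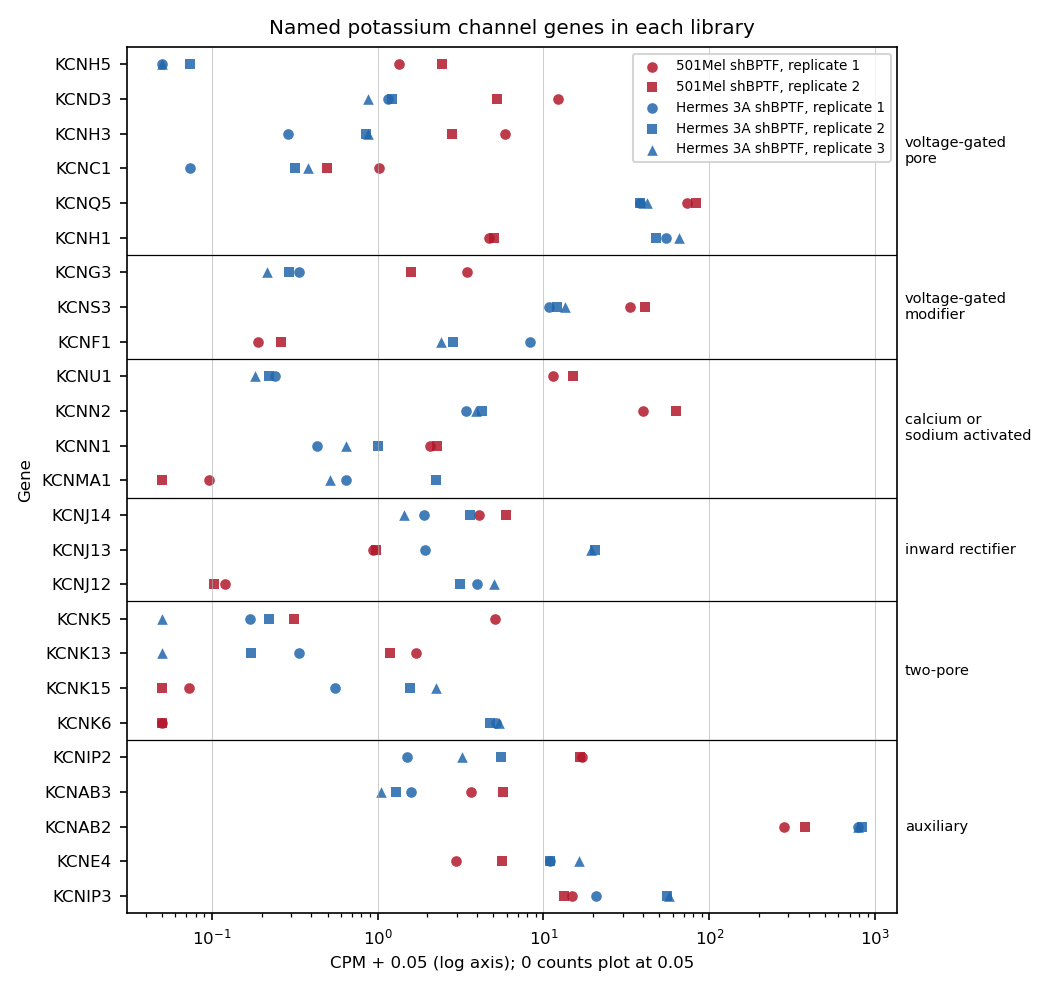
CPM plus 0.05 on a log axis for the 25 named potassium channel genes, with 1 point per library (red, 501Mel shBPTF; blue, Hermes 3A shBPTF; circle, square and triangle for replicates 1, 2 and 3) and horizontal lines between classes. KCNH1, KCNF1, KCNJ12, KCNK6 and KCNAB2 lie lower in 501Mel cells in every library, while KCNU1 and KCNN2 lie more than 5-fold higher in both of them.

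Modifier subunits have the fold of a Kv subunit but act only together with Kv2 pores. KCNS3 (Kv9.3) was the highest of them per length in both lines, at 11.8 CPM per kb of exon in 501Mel and 3.86 CPM per kb in Hermes 3A cells. Its counts were 1430 and 1546 in 501Mel and 447, 494 and 404 in Hermes 3A cells, 37.0 ± 5.38 CPM against 12.1 ± 1.35 CPM. The lines were well apart, with a log2 fold change of 1.56 (SE 0.19, adjusted p = 0.000787).

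KCNG3 (Kv6.3) had 147 and 58 counts in 501Mel and 12, 10 and 5 in Hermes 3A cells (log2 fold change 3.30, SE 0.53, adjusted p = 0.00227). KCNF1 (Kv5.1) went in the other direction, with 6 and 8 counts in 501Mel and 344, 114 and 71 in Hermes 3A cells. Its Hermes 3A libraries differed among themselves, replicate 1 being the highest (4.47 ± 3.29 CPM), and all of them were above 0.175 ± 0.0508 CPM in 501Mel cells (log2 fold change -4.75, SE 0.82, adjusted p = 0.00317). KCNS1 was also higher in Hermes 3A cells, with 12 and 7 against 25, 27 and 28 counts and an adjusted p of 0.028, a call lost without either 501Mel library or Hermes 3A replicate 3.

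The small-conductance SK channels open on calcium bound to calmodulin and link calcium signals to the membrane potential. KCNN2 (chromosome 5, 114055545 to 114496500, plus strand), which encodes SK2, was the highest calcium or sodium activated gene per length in both lines. It had 1718 and 2382 counts in 501Mel and 141, 173 and 117 in Hermes 3A cells, or 51.4 ± 16.3 CPM against 3.84 ± 0.427 CPM. The 13.4-fold difference far exceeded the spread within either line (log2 fold change 3.69, SE 0.25, adjusted p = 7.4e-05). KCNN1 (SK1) was also higher in 501Mel cells, with 87 and 85 against 16, 39 and 18 counts and an adjusted p of 0.0209, which rose to 0.0681 to 0.0882 without either 501Mel library or without Hermes 3A replicate 3. KCNN3 (SK3) had 60 and 68 against 1, 22 and 17 counts and was not called (adjusted p = 0.0805). KCNN4, the intermediate-conductance channel of lymphocytes and red cells, had 46 and 6 against 13, 16 and 2 counts, and its libraries overlapped.

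KCNU1 encodes Slo3, a potassium channel known from sperm, where it opens at alkaline pH. It had 487 and 570 counts in 501Mel and 8, 7 and 4 in Hermes 3A cells, or 13.2 ± 2.64 CPM against 0.165 ± 0.0300 CPM. This was a 79.7-fold difference (log2 fold change 6.21, SE 0.38, adjusted p = 5.25e-05), the lowest adjusted p among the members. At 3.32 CPM per kb it ranked below KCNN2, at 7.92 CPM per kb, among the channels of its class in 501Mel cells. KCNMA1, the pore of the large-conductance BK channel and a relative of KCNU1, had 2 and 0 counts in 501Mel and 25, 90 and 14 in Hermes 3A cells. The ratio of pooled CPM for KCNMA1 was 46.3 in favour of Hermes 3A cells, with a 95% exact interval from 12.6 to 387 and an edgeR adjusted p of 0.00907. The Hermes 3A libraries of KCNMA1 differed more than 4-fold, and its beta subunit KCNMB4 was not called.

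Inward rectifiers pass potassium more readily into the cell than out and hold the membrane near the potassium potential. KCNJ13 (chromosome 2, 232766464 to 232776568, minus strand) encodes Kir7.1, a channel of transporting epithelia that also acts in the pigment pattern of fish. Its upstream stretch, printed with those of the other members, is the one without a CG dinucleotide and with the CATGTG letters. KCNJ13 had 38 and 35 counts in 501Mel and 79, 832 and 583 in Hermes 3A cells. All Hermes 3A libraries were above the 501Mel libraries, 13.9 ± 10.4 CPM against 0.904 ± 0.0293 CPM, but replicate 1 stood far below the other two (log2 fold change -3.97, SE 0.98, adjusted p = 0.0132). The call was lost without either 501Mel library (adjusted p = 0.0803 and 0.0646). In the annotation 24.3% of the exon bases of KCNJ13 overlap GIGYF2, a gene on the opposite strand, with 4725 and 3253 counts in 501Mel and 2723, 2449 and 1736 in Hermes 3A cells.

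KCNJ12 (Kir2.2) had 3 and 2 counts in 501Mel and 163, 127 and 149 in Hermes 3A cells, or 0.0613 ± 0.0119 CPM against 3.99 ± 0.926 CPM. The log2 fold change was -6.01 (SE 0.56, adjusted p = 0.000253), and the near-identical copy KCNJ18, which was in neither table, may have shared its reads. KCNJ2, which encodes the related Kir2.1, had 166 and 136 against 166, 143 and 60 counts and was not called. KCNJ14 (Kir2.4) was the highest Kir gene per length in 501Mel cells, with 174 and 224 against 77, 145 and 42 counts, and did not pass (log2 fold change 1.08, SE 0.46, adjusted p = 0.0877). KCNJ10 (Kir4.1) was the Kir gene called higher in 501Mel cells, at 34 and 35 against 10, 9 and 4 counts (adjusted p = 0.0117), and the call was lost without either 501Mel library.

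K2P channels are open at rest and carry much of the background potassium conductance. KCNK6 (TWIK-2, chromosome 19, 38319844 to 38332076, plus strand), whose printed stretch held 10 CG dinucleotides, had 0 counts in both 501Mel libraries and 215, 193 and 161 counts in Hermes 3A cells, or 5.08 ± 0.323 CPM. Against the floor of 3 counts per library it was at least 64.1-fold higher in Hermes 3A cells (adjusted p = 0.000188), and it was the highest K2P gene per length there. KCNK15 (TASK-5) had 1 and 0 counts in 501Mel and 21, 62 and 66 in Hermes 3A cells. Its ratio of pooled CPM was 107 with a 95% exact interval from 18.9 to 4256, and the edgeR adjusted p was 0.00308. Of its exon bases 19.5% overlap RIMS4 on the opposite strand, which had 350 and 132 counts in 501Mel and 6, 28 and 32 in Hermes 3A cells, the reverse order of the lines.

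In 501Mel cells KCNK5 (TASK-2), a channel of kidney tubules, was the highest K2P gene per length on the mean of the libraries. This lead rested on replicate 1. In replicate 2 KCNK5 was at 0.264 CPM with 3.76 kb of exon, below KCNK13 at 1.14 CPM with 2.52 kb. The counts of KCNK5 were 217 and 10 in 501Mel and 5, 7 and 0 in Hermes 3A cells. Nearly all of the difference came from replicate 1, and replicate 2 was barely above the Hermes 3A libraries (log2 fold change 4.57, SE 1.27, adjusted p = 0.0204). Without replicate 1 the log2 fold change of KCNK5 was 1.29 and the adjusted p 0.458, and without Hermes 3A replicate 3 the latter was 0.0523. KCNK13 (THIK-1) had 71 and 43 against 12, 5 and 0 counts (log2 fold change 3.16, SE 0.86, adjusted p = 0.0186), and the call was lost without 501Mel replicate 1 (0.0932) or Hermes 3A replicate 2 (0.0575). KCNK2 and KCNK7 were not called.

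KCNAB2 (chromosome 1, 5991466 to 6101193, plus strand) encodes a cytoplasmic beta subunit of Kv1 channels with the fold of an aldo-keto reductase. It held 47.6% and 53.9% of all reads on potassium channel genes in 501Mel and 73.4% to 79.3% in Hermes 3A cells. Its counts were 12073 and 14325 in 501Mel and 32982, 34124 and 23532 in Hermes 3A cells, 281 and 378 CPM against 792, 835 and 782 CPM. The lines did not overlap (log2 fold change -1.35, SE 0.19, adjusted p = 0.00138). Per kb of exon it was at 34.6 CPM per kb in 501Mel and 84.2 CPM per kb in Hermes 3A cells, the highest of all members in both lines, while the 8 Kv1 pores with which it is known to assemble did not reach 10 counts in every library of a line. With KCNAB2 the total of all members was 589 and 702 CPM against 998 to 1097 CPM, and without KCNAB2 it was 309 and 324 CPM against 206 to 284 CPM, so that the direction turned. Its relative KCNAB3 was higher in 501Mel cells, with 156 and 215 against 64, 51 and 30 counts (log2 fold change 1.81, SE 0.40, adjusted p = 0.00863, and 0.0599 without 501Mel replicate 2).

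The KChIP proteins are calcium sensors that bind Kv4 pores. KCNIP2, which is required for the transient outward current of the heart, had 728 and 630 counts in 501Mel and 61, 224 and 96 in Hermes 3A cells, or 16.8 ± 0.195 CPM against 3.38 ± 2.02 CPM. It was thus higher in the line where the Kv4 pore gene KCND3 was also higher (log2 fold change 2.27, SE 0.47, adjusted p = 0.00666), and 12.2% of its exon bases overlap KCNIP2-AS1, an antisense gene with 5 to 19 counts per library. KCNIP3, which also acts as the transcriptional repressor DREAM, had 639 and 499 counts in 501Mel and 863, 2273 and 1720 in Hermes 3A cells (log2 fold change -1.72, SE 0.41, adjusted p = 0.0119). Replicate 1 of Hermes 3A was again the lowest of its line, above both 501Mel libraries, and without either 501Mel library KCNIP3 did not pass (adjusted p = 0.0598 and 0.0613). KCNIP4 was not called. KCNE4, a single-span subunit that inhibits several Kv channels, was higher in Hermes 3A cells, with 126 and 211 against 454, 443 and 489 counts (log2 fold change -1.63, SE 0.38, adjusted p = 0.0106).

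Replicates of a line differed for several of these genes. Of the 50 potassium channel genes with at least 10 counts in either 501Mel library, 6 were at least 4-fold higher in replicate 1 with 3 counts added to each value, and none was that much lower. Over all genes of that kind the shares were 2.19% and 0.302%. Among them were KCNG1 (165 and 4 counts), KCNK5, KCNA2 (119 and 7 counts), KCNA3 (45 and 4 counts) and KCNN4, which were chosen by this difference. In Hermes 3A cells 5 of 45 genes, KCNJ13, KCNT1, KCNN3 and KCNK2 among them, were at least 4-fold lower in replicate 1 than in replicate 2, where 2.15% of all genes were. Which hairpin each library carried was not tested.

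**Figure D3:**
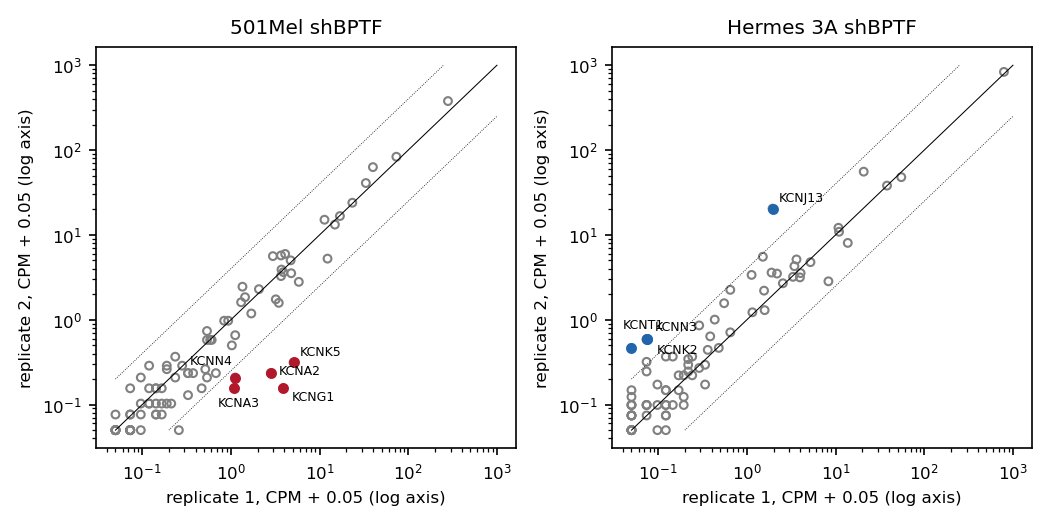
CPM plus 0.05 of the potassium channel genes in replicate 1 against replicate 2 of 501Mel shBPTF cells (left) and Hermes 3A shBPTF cells (right), on log axes, with the line of equality and dotted lines at 4-fold. Filled and named points differed by at least 4-fold with 3 counts added, 5 of them higher in replicate 1 in 501Mel and 4 lower in replicate 1 in Hermes 3A cells, with 1 further gene of each line not drawn.

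Other genes that carry potassium or assemble with its channels were read from the same fit, 45 in all. Of these 26 were tested, with 11 higher in 501Mel and 6 higher in Hermes 3A cells. Over all tested genes 24.3% and 24.1% were called in these directions and the median log2 fold change was 0.02, against which the counts and medians of the lists are to be read. The first number was 6 without 501Mel replicate 1 and the second 3 without 501Mel replicate 2. ATP1B1, a beta subunit of the sodium-potassium pump that builds the potassium gradient, had 768 and 784 counts in 501Mel and 108, 98 and 50 in Hermes 3A cells, with a log2 fold change of 3.05 (SE 0.29, adjusted p = 0.000291). The pump modulator FXYD5 had 0 counts in both 501Mel libraries and 3618, 2603 and 1592 in Hermes 3A cells, at least 856-fold higher over the floor (adjusted p = 4.5e-05). Of the 9 tested pump genes 4 were higher in 501Mel and 1 in Hermes 3A cells, with a median log2 fold change of 1.73.

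Cation-chloride cotransporters couple potassium to chloride and cell volume, and 4 of the 7 tested were higher in Hermes 3A cells and 2 in 501Mel cells, with a median log2 fold change of -1.06. SLC12A4 (KCC1) had 971 and 893 against 3838, 4594 and 3160 counts, a log2 fold change of -2.22 with an adjusted p of 6.5e-05. SLC12A9 had 1009 and 859 against 2505, 2558 and 1420 counts (log2 fold change -1.36, adjusted p = 0.00109). SLC12A7 (KCC4) was the opposite, with 1726 and 1934 against 952, 663 and 677 counts (log2 fold change 1.08, adjusted p = 0.00727). Of the 7 tested partner proteins outside the KCN names, 4 were higher in 501Mel and none in Hermes 3A cells, among them AKAP9 (log2 fold change 0.60), which scaffolds a channel complex of the heart. LRRC55, a gamma subunit of BK channels chosen here after its values were seen, had 749 and 90 counts in 501Mel and 0, 0 and 1 in Hermes 3A cells, in the line where the BK pore KCNMA1 was at 2 and 0 counts. Of the pacemaker channels, HCN2 was higher in Hermes 3A cells, with 1240 and 679 against 1376, 1851 and 1448 counts (log2 fold change -0.91, adjusted p = 0.0198).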

How the data were processed

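RNA was depleted of ribosomal RNA, and the libraries were treated with duplex-specific nuclease, which lowers abundant transcripts and so narrows the range of levels. Per the submitters' processing notes, CASAVA 1.8, TopHat 1.4.1, Bowtie 0.12.7 and hg19 were used. The counting program, its annotation and its use of strand are not given in the sources used here. The authors deposited whole-number read counts per gene for each library, without normalization.

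Counts of the 31029 genes listed in both lines were tested with edgeR 4.0.16 in R 4.3.3 (TMM, filterByExpr, quasi-likelihood test, Benjamini-Hochberg over 17918 genes, threshold 0.05). No covariate was used. CPM were computed on library totals. Coordinates and exon lengths are those of GENCODE 29 on GRCh38 and not of the authors' build, and 29317 of the identifiers common to both lines were found there. Promoters are from RefSeq.

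Genes were named as follows: KCNC1, the 12 largest changes in each direction among called members with at least 1 CPM, the highest per kb of each class and line, and the 3 highest CPM in each line. Companion genes were named when called with at least 10 CPM, the 2 largest per list and direction. Other genes given with values were chosen after these were seen. Some genes are not reported here. Members, lists and rules were chosen with earlier results of these data known. DESeq2 1.42.0, other scalings and filters, a replicate block and the omission of each library were tried.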

Additional observations from a re-analysis of the deposited data

How the results depend on the processing

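Under other normalizations (RLE, library totals) and with a minimum of 10 counts in every library of a line, the same 26 potassium channel genes were called. DESeq2 called 30, adding KCNA2, KCNJ14, KCNMB4 and KCNQ1, and without a low-count filter 29 were called. With unlisted genes taken as 0, chosen after seeing the data, 27 were called, KCNJ15 being the addition. With a required log2 fold change of 1, 14 were higher in 501Mel and 11 in Hermes 3A cells.

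Leaving out 1 library at a time gave 9 to 16 members higher in 501Mel and 8 to 11 higher in Hermes 3A cells, 2871 to 4595 and 3233 to 4687 of all genes, and 6 to 11 and 3 to 6 of the companion genes. The lowest numbers for 501Mel cells came without its replicate 1, when KCNC4, KCNH3, KCNIP3, KCNJ10, KCNJ13, KCNK5, KCNK13, KCNN1 and KCNS1 were no longer called, and the remaining 501Mel library was assumed to vary like the Hermes 3A libraries. Without 501Mel replicate 2, KCNAB3, KCNC4, KCNIP3, KCNJ10, KCNJ13, KCNN1 and KCNS1 were lost. Without Hermes 3A replicate 2, KCNC4 and KCNK13 were lost, and without replicate 3, KCNC4, KCNK5, KCNN1 and KCNS1. Without Hermes 3A replicate 1 all 26 were kept and KCNN3 was gained. The cause was not tested beyond the smaller number of libraries. Of 300 values of the 25 named genes under these alternatives, 284 kept their side of the threshold, 14 lost it, 2 gained it and 0 changed sign.

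With the replicate number as a block, 14 members were higher in 501Mel and 10 in Hermes 3A cells, with 23 of the 26 genes shared. KCNJ10, KCNK5 and KCNS1 were lost and KCNN3 gained. Libraries with the same number correlated at 0.104 and 0.121 in their deviations. The lines share only 2 numbers, which were not taken as a pairing.

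With a minimum of 1 count in every library, 73 members were detected in 501Mel and 59 in Hermes 3A cells, and with 50 counts 24 and 19. Omitting 1 library gave 37 to 49 detected members in 501Mel and 29 to 33 in Hermes 3A cells. Class sums on TMM-scaled library sizes moved by less than the spread between replicates, though the lines then overlapped in the Kv pore sum. The class leaders per length, taken on the mean of a line, were the same with median and longest transcript lengths. The lead of KCNK5 in 501Mel cells rested on replicate 1. Genes near the floor of 3 counts could not be ranked at this depth.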
